A study of Mus musculus with 50 samples.

Results

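Fat cells carry receptors that start the breakdown of stored triglyceride and others that hold it back. The genes described here are 8 of these receptors: Adrb3, Adrb1, Mc5r and Mc2r, which drive lipolysis, and Hcar1, Hcar2, Adora1 and Adra2a, which brake it. They were located by gene symbol, and each of the 8 was found as 1 row in the count tables, out of 55401 genes in the table of the later fat samples and 55414 in each of the other tables.

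Transcripts were counted in male mice of an hM3DGq line that were either positive or negative for Gfral Cre. The libraries carry only the genotype names TG and WT; TG was read as Cre-positive and WT as Cre-negative from the series' design text, and the direction of every difference rests on that reading. The receptor hM3DGq is a designer receptor that excites the cells expressing it when clozapine N-oxide (CNO) is given, and Gfral Cre directs it to neurons with the GDF15 receptor GFRAL. WT and TG mice all came from the hM3DGq line and all received CNO at 1 mg/kg, so TG and WT, read this way, differed by Cre. No library came from mice without CNO, and age, the number of founder lines and the separateness of the mice are not stated by the labels, so p-values measure the spread between samples, which may in part be technical. One tissue was the quadriceps, taken from mice under a clamp (10 WT and 10 TG), and the other perigonadal white fat (pgWAT), taken 1 h (9 WT and 9 TG) or 6 h (6 WT and 6 TG) after CNO. The study asked how exciting GFRAL neurons alters gene expression in a muscle with lowered and a fat depot with raised glucose uptake.

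In adipocytes, receptors coupled to the stimulatory G protein raise cyclic AMP, which activates protein kinase A, and the kinase turns on the lipases of the fat droplet. Catecholamines act through beta-adrenergic receptors, and corticotropin and melanocyte-stimulating hormones through melanocortin receptors. Receptors coupled to inhibitory G proteins lower cyclic AMP: those for lactate (Hcar1), for 3-hydroxybutyrate and niacin (Hcar2), for adenosine (Adora1) and, for catecholamines, the alpha-2A receptor (Adra2a).

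RefSeq promoter sequences on GRCm38.p6, 250 bases before to 50 after the transcription start, held entries for 4 of the 8 receptors, Adora1, Hcar1, Adra2a and Adrb1. The promoters of Hcar1 (chr5:123879954-123880253, minus strand) and Adrb1 (chr19:56721867-56722166, plus strand) are shown because these are the receptors with an entry whose transcripts fell at 6 h. Capitals mark the single match in these sequences to any motif searched, the CREB site TGACG of Adrb1. It lies at positions -90 to -86 from the transcription start of that RefSeq entry. The Adrb1 gene start in GENCODE (chr19:56722199) lies past the end of the Adrb1 window.
Hcar1: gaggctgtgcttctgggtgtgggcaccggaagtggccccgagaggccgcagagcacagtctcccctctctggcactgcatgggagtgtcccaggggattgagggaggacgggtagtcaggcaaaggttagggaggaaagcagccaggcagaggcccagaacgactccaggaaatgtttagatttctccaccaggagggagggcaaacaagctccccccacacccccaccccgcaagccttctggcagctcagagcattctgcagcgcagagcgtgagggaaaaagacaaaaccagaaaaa
Adrb1: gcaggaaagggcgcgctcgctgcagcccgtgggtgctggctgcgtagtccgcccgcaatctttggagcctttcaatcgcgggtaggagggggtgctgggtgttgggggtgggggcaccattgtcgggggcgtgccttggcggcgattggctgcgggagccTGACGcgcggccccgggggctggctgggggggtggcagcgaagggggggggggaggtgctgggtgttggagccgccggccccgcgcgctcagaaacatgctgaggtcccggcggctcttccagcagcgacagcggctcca
The motifs searched on both strands were the full glucocorticoid response element, the CREB site TGACG and its full form TGACGTCA, which contains it, the C/EBP site TTNNGNAA and the direct repeat bound by PPAR with RXR. They were present in 0.476%, 20.9%, 1.8%, 40.7% and 0.0399% of 32544 promoters of the same length. Guanine and cytosine made up 59.7% of the Hcar1 and 72.3% of the Adrb1 promoter. Of the entries not shown, that of Adra2a held 3 matches, to TGACG and to the C/EBP site, and those of Adora1 held 0. Neither of these receptors passed at 6 h. A match describes letters in these windows and is not evidence of binding.

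Gene totals were 959980 to 2613672 counts per quadriceps library, 976610 to 4852560 per 1 h fat library and 9150496 to 12883462 per 6 h fat library. Summed skeletal muscle markers stood at 37322 to 63516 CPM (the count of a gene per 1e6 counts of all genes, after TMM scaling) in WT quadriceps, and summed adipocyte markers at 10706 to 25612 CPM at 1 h and 33780 to 59973 CPM at 6 h, as the tissue labels state. Liver transcripts stood out in 1 library at 6 h (TG 2, 1455 CPM) and most at 1 h in TG 3 (9255 CPM) and WT 7 (2278 CPM). Transcripts of epididymal duct epithelium were highest at 1 h in TG 4 (337 CPM), TG 6 (300 CPM) and WT 9 (289 CPM). The 6 h libraries were made with another kit than the other libraries, so kit and time cannot be told apart and levels are compared only within a time. In bulk tissue, fewer cells of a type and less RNA per cell cannot be told apart.

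At 6 h, 4 of the 8 receptors fell and 1 rose in fat of TG mice. Adrb3, Hcar1, Hcar2 and Adrb1 fell, from 4.58-fold lower for Adrb3 to 1.55-fold lower for Adrb1, and Mc5r rose 10.0-fold. Receptors on both sides moved: among those that drive lipolysis, 2 fell, 1 rose and 1 did not pass, and among those that brake it, 2 fell and 2 did not pass. These are 5 of 8 receptors past an adjusted p of 0.05 (edgeR's quasi-likelihood test, Benjamini-Hochberg adjustment over 14359 genes), beside 14.4% of all genes tested. Of the 5, Mc5r was scarce in WT, and its place among the genes tested rested largely on its TG libraries. The receptors were picked with earlier results of these data known, so these shares stand side by side as a description and not as a test. The shares of all genes were 7.54% lower and 6.88% higher, and the median log2 change over all genes tested was 0.0016.

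**Figure D1:**
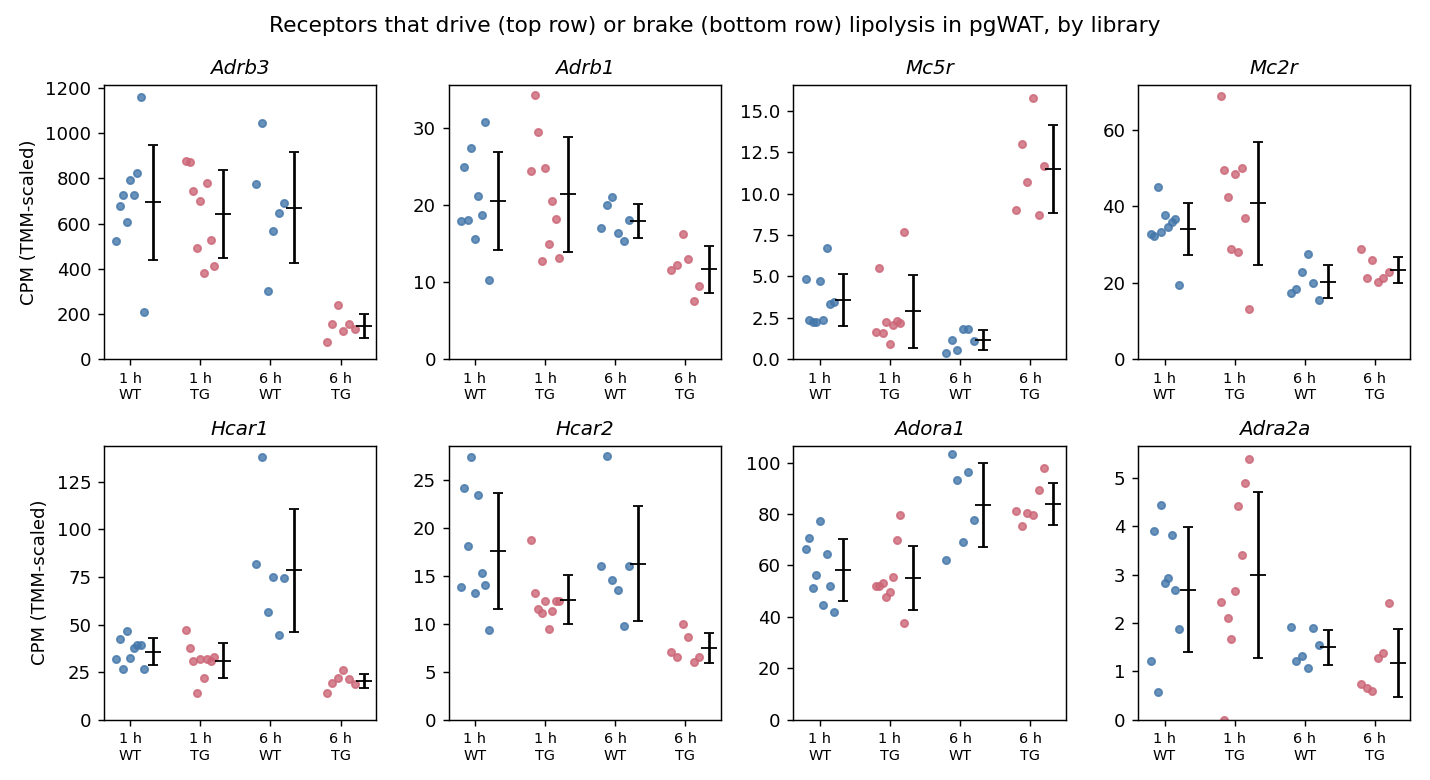
CPM on linear axes of each of the 8 receptors in every fat library, 1 point per library, with the mean and SD as a black bar beside each group; receptors that drive lipolysis are in the top row and those that brake it in the bottom row. At 6 h the TG libraries of Adrb3 (74.4 to 239 CPM) and Hcar1 (14.2 to 26.0 CPM) lie below every WT library, and those of Mc5r (8.69 to 15.8 CPM) above every WT library.

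Adrb3 encodes the beta-3 adrenergic receptor, the main catecholamine receptor of rodent white and brown fat cells (ENSMUSG00000031489, GRCm38 chr8:27225776-27250616, minus strand). In the 6 WT libraries it ranged from 300 to 1043 CPM with a median of 669, and in the 6 TG libraries from 74.4 to 239 CPM with a median of 143. Every TG library lay below every WT library, and WT 3 was the lowest of the WT libraries. Means were 670 ± 244 and 147 ± 53.9 CPM (SD, n = 6 each), a log2 change of -2.20 (SE 0.32, 95% interval -2.91 to -1.48, edgeR adjusted p = 0.000992). Among the 10979 genes with an average of at least 5 CPM by edgeR's estimate, it had the rank 10 from the most lowered.

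The beta-1 adrenergic receptor Adrb1 (ENSMUSG00000035283, GRCm38 chr19:56722199-56733113, plus strand) answers noradrenaline with the same coupling. It was lower by less: WT libraries ranged from 15.3 to 21.1 CPM (median 17.5) and TG libraries from 7.48 to 16.2 CPM (median 11.8). The groups overlapped, since TG 3 at 16.2 CPM lay above the lowest WT library. Its log2 change was -0.63 (SE 0.15, edgeR adjusted p = 0.00836), with means of 17.9 ± 2.21 and 11.6 ± 3.0 CPM (SD, n = 6 each).

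Mc5r encodes the melanocortin 5 receptor, which answers melanocyte-stimulating hormone and corticotropin and acts in mouse fat cells and exocrine glands (ENSMUSG00000007480, GRCm38 chr18:68337596-68342446, plus strand). It was scarce in WT fat, at 0.367 to 1.82 CPM (median 1.11), or 4 to 22 counts per library and 77 in all. In TG fat it ranged from 8.69 to 15.8 CPM (median 11.2), or 91 to 197 counts per library and 773 in all. Every TG library lay above every WT library. The log2 change was 3.32 (SE 0.28, 95% interval 2.72 to 3.92, edgeR adjusted p = 5.27e-07), the rank 7 from the most raised among genes of at least 5 CPM. Mc5r met that minimum only through the TG libraries (means of 1.13 CPM in WT and 11.5 CPM in TG). Its place in that ranking thus depends on the rise itself and adds no support to it. All 6 TG libraries and 4 of the 6 WT libraries held more than 10 counts, so its passing the filter on low counts rested largely on the TG libraries. Without that filter its log2 change was 3.33 (edgeR adjusted p = 2.20e-09).

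Mc2r is the corticotropin receptor of the adrenal cortex and of mouse adipocytes, and needs the accessory protein Mrap to reach the cell surface. WT libraries held 15.5 to 27.4 CPM (median 19.2) and TG libraries 20.2 to 28.8 CPM (median 22.1). The ranges overlapped over most of their width. Its log2 change of 0.20 did not pass (95% interval -0.07 to 0.48, edgeR adjusted p = 0.355).

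Hcar1, the lactate receptor of adipocytes, carries the effect of insulin-driven lactate on lipolysis (ENSMUSG00000049241, GRCm38 chr5:123876736-123880020, minus strand). Its WT libraries ranged from 44.6 to 138 CPM (median 74.9), and its TG libraries from 14.2 to 26.0 CPM (median 20.4). All 6 TG libraries lay below all 6 WT libraries, and WT 2 was the highest. Means were 78.5 ± 32.2 and 20.4 ± 3.90 CPM (SD, n = 6 each), 3.86-fold lower in TG, with a log2 change of -1.95 (SE 0.25, edgeR adjusted p = 0.000290). It had the rank 15 from the most lowered.

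Hcar2, the receptor for 3-hydroxybutyrate and niacin (ENSMUSG00000045502, GRCm38 chr5:123863570-123865499, minus strand), lies 11237 bases from Hcar1 on the same strand. WT libraries ranged from 9.77 to 27.5 CPM (median 15.3) and TG libraries from 6.02 to 9.99 CPM (median 6.77). The groups touched at 1 point, where TG 3 at 9.99 CPM lay above WT 5 at 9.77 CPM. Its log2 change was -1.13 (SE 0.21, edgeR adjusted p = 0.00143), a smaller fall than that of Hcar1 by value; the difference between the genes was not tested.

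Adora1, the A1 adenosine receptor, did not pass. It ranged from 62.1 to 103 CPM in WT and from 75.5 to 97.8 CPM in TG, with means of 83.5 ± 16.4 and 83.9 ± 8.14 CPM (SD, n = 6 each). The TG range lay within the WT range, and its log2 change was 0.01 (95% interval -0.23 to 0.25, edgeR adjusted p = 0.975). Adra2a, the alpha-2A adrenergic receptor, was near the limit of counting, with 100 counts in all WT libraries and 82 in all TG libraries. Its log2 change of -0.32 did not pass (95% interval -1.06 to 0.43, edgeR adjusted p = 0.621), and changes within that interval were not excluded. Of the 8 receptors, 3 (Adrb3, Hcar1 and Mc5r) had ranges that did not overlap, beside 7.68% of the genes tested. Mc5r is among the 3 although its place among the genes tested rested largely on its TG libraries.

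**Figure D2:**
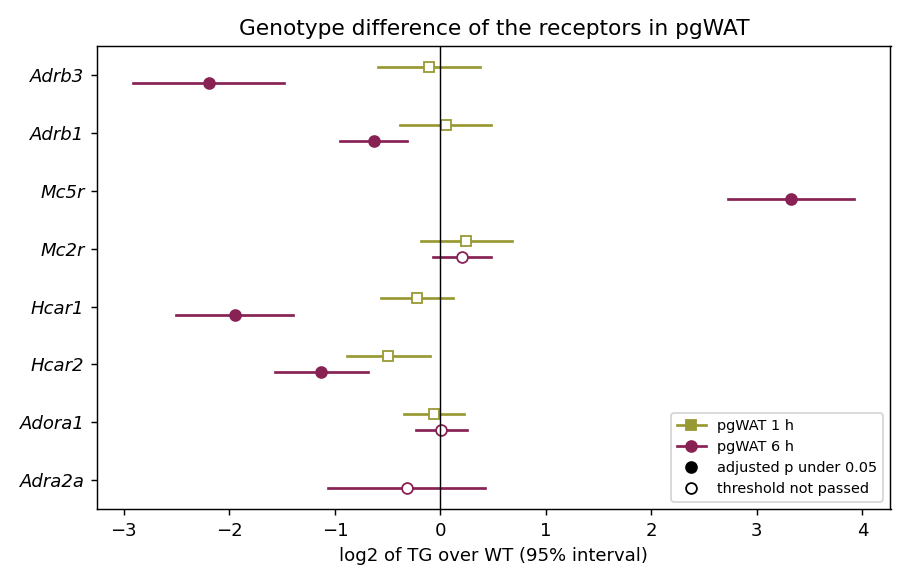
Log2 change of TG against WT with its 95% interval for each receptor tested in fat at 1 h (squares) and 6 h (circles), filled where the adjusted p passed 0.05. At 6 h Adrb3 (-2.20), Hcar1 (-1.95), Hcar2 (-1.13) and Adrb1 (-0.63) lie below 0 and Mc5r (3.32) above it, whereas the intervals of Adora1, Mc2r and Adra2a reach over 0, and no square is filled.

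The summed adipocyte markers overlapped between the genotypes at 6 h. Their sum was 40226 to 59973 CPM in WT (median 44559) and 33780 to 48301 CPM in TG (median 46383). Fabp4 weighed most in it (2816967 counts in all 12 libraries), followed by Cfd (987033) and Adipoq (682057), and these did not pass. Of the 10 markers, 1 rose (Cidec, a droplet protein) and 1 fell (Pparg, the nuclear receptor of adipocyte identity). With the log2 adipocyte sum as a covariate, a fit added after seeing the data, the log2 changes were -2.02 for Adrb3, -1.72 for Hcar1, -0.95 for Hcar2, -0.60 for Adrb1 and 3.36 for Mc5r, and the same 5 receptors passed. Leaving out TG 2, the library with liver transcripts, gave -2.21, -1.93, -1.09, -0.65 and 3.28 in that order. Skeletal muscle markers in the fat libraries were 24.1 to 52.5 CPM in WT and 63.4 to 121 CPM in TG, and lymphocyte markers 8.03 to 24.0 CPM in WT and 3.53 to 8.03 CPM in TG. The muscle sum was mostly Acta1 (7824 counts in all 12 libraries), which rose (log2 change 1.26, edgeR adjusted p = 0.00602), whereas Mylpf (-0.08) and Pvalb (0.46) did not pass and the other 5 muscle markers, with 14 to 118 counts, were too low to test. Of the 7 lymphocyte markers 2 were tested: Nkg7 fell (-1.23, edgeR adjusted p = 0.0211) and Cd3e (-0.58) did not pass. The part of those transcripts in the results was not tested.

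At 1 h none of the 6 receptors that could be tested passed with edgeR or DESeq2, beside 0.0722% of the 11087 genes tested with edgeR (8 genes). Only Hcar2 among the 6 had an edgeR unadjusted p under 0.05, beside 512 of the 11087 genes. WT libraries held 9.34 to 27.3 CPM (median 15.3) and TG libraries 9.50 to 18.7 CPM (median 12.3), with a log2 change of -0.50 (SE 0.19, edgeR unadjusted p = 0.0159, adjusted p = 0.998). Of the 9 TG libraries, 8 lay below the WT median.

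Adrb3 at 1 h ranged from 210 to 1159 CPM in WT (median 726) and from 380 to 876 CPM in TG (median 698). The groups overlapped over the whole TG range, with a log2 change of -0.11 (95% interval -0.59 to 0.38, edgeR adjusted p = 1.00). WT 9 was lowest in Adrb3 and in the adipocyte sum (10706 CPM), and held 289 CPM of duct epithelium transcripts. Log2 changes were -0.22 for Hcar1, 0.05 for Adrb1, -0.06 for Adora1 and 0.25 for Mc2r. Mc5r (69 counts in WT and 46 in TG) and Adra2a (49 and 64 counts) were under the filter on low counts at 1 h. Without the filter their log2 changes were -0.38 and 0.20, with edgeR adjusted p = 0.757 and 0.929.

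The genotype differences at 6 h and 1 h were compared in 1 fit over all 30 fat libraries, which gave a test of the difference itself. Adrb3, Hcar1 and Mc5r passed, with log2 differences of -2.08 (SE 0.40, edgeR adjusted p = 0.00131), -1.72 (SE 0.29, adjusted p = 0.000185) and 3.75 (SE 0.48, adjusted p = 4.38e-06). These are 3 of 8 receptors, beside 4.21% of 13022 genes. Mc5r, under the filter at 1 h with 1 to 14 counts per library, passed the filter of this fit through its 6 h TG libraries. Its 1 h side rests on those few counts. Adrb1 (-0.68, edgeR adjusted p = 0.217) and Hcar2 (-0.63, adjusted p = 0.287) passed at 6 h alone, and their difference from 1 h did not pass. Differences of -0.60 for Adra2a, 0.07 for Adora1 and -0.04 for Mc2r did not pass either. Kit, depth and time changed together between these libraries, and their parts cannot be told apart.

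Quadriceps held too few counts of the receptors for a test: 1 to 60 counts in all 10 libraries of a genotype. Adrb3 stood at 60 counts in WT (0 to 20 per library, 4.15 ± 3.24 CPM, SD, n = 10) and 14 in TG (0 to 6 per library, 1.16 ± 1.68 CPM, n = 10). Overlap was wide, TG 1 at 4.82 CPM being the highest TG library. The other 7 had from 1 to 49 counts per genotype, Mc5r the most with 45 in WT and 49 in TG. A count of 0 in a library allows up to 1.15 to 3.13 CPM, by counting error only. With every one of 21711 genes kept, Adrb3 had a log2 change of -1.83 (SE 0.42, edgeR adjusted p = 0.00210). DESeq2 gave -1.86 (adjusted p = 0.113), and the edgeR fit with the adipocyte sum as a covariate gave -1.45 (adjusted p = 0.0774). WT 3 was highest both in Adrb3 and in the adipocyte sum (1545 CPM, beside a WT median of 786 and a TG median of 753). In the table tested with the filter, 2.03% of 8070 genes passed. TG replicate 10 has a treatment label naming 1 h and a title naming the clamp, and the title was followed; without it the edgeR fit of all genes gave -1.70 for Adrb3 (adjusted p = 0.00852).

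**Figure D3:**
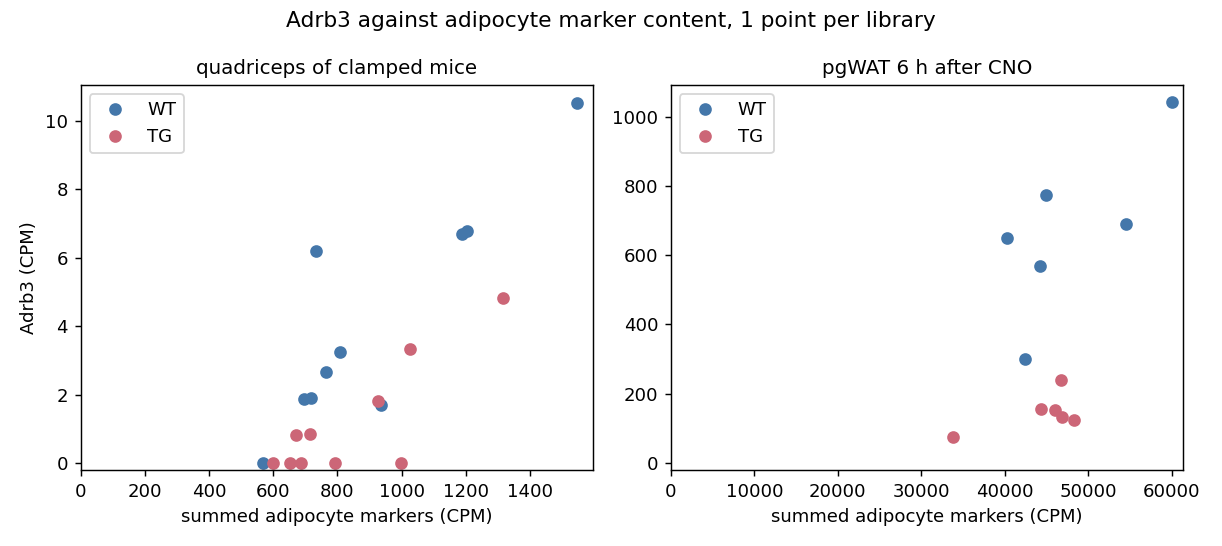
Adrb3 CPM against the summed adipocyte markers (CPM), on linear axes, 1 point per library, in quadriceps (left) and in fat at 6 h (right). In quadriceps WT 3 lies at the top right, at 1545 CPM of adipocyte markers; at 6 h the TG libraries lie lower in Adrb3 (74.4 to 239 CPM) than the WT libraries (300 to 1043 CPM) over overlapping adipocyte sums.

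A list of 76 other genes of the pathway places these receptors among the proteins they work with. At 6 h, 65 of the 76 were tested, and 6 rose and 9 fell, with a median log2 change of 0.02 over the 65, beside 14.4% of all genes called, 6.88% higher and 7.54% lower. At 1 h none of 56 passed with edgeR or DESeq2, and in quadriceps none of 39. With edgeR, 1 of the 56 (Ffar2 at -0.30) and 4 of the 39 had an unadjusted p under 0.05. Over all genes tested, 512 of 11087 at 1 h and 942 of 8070 in quadriceps had such a value.

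**Figure D4:**
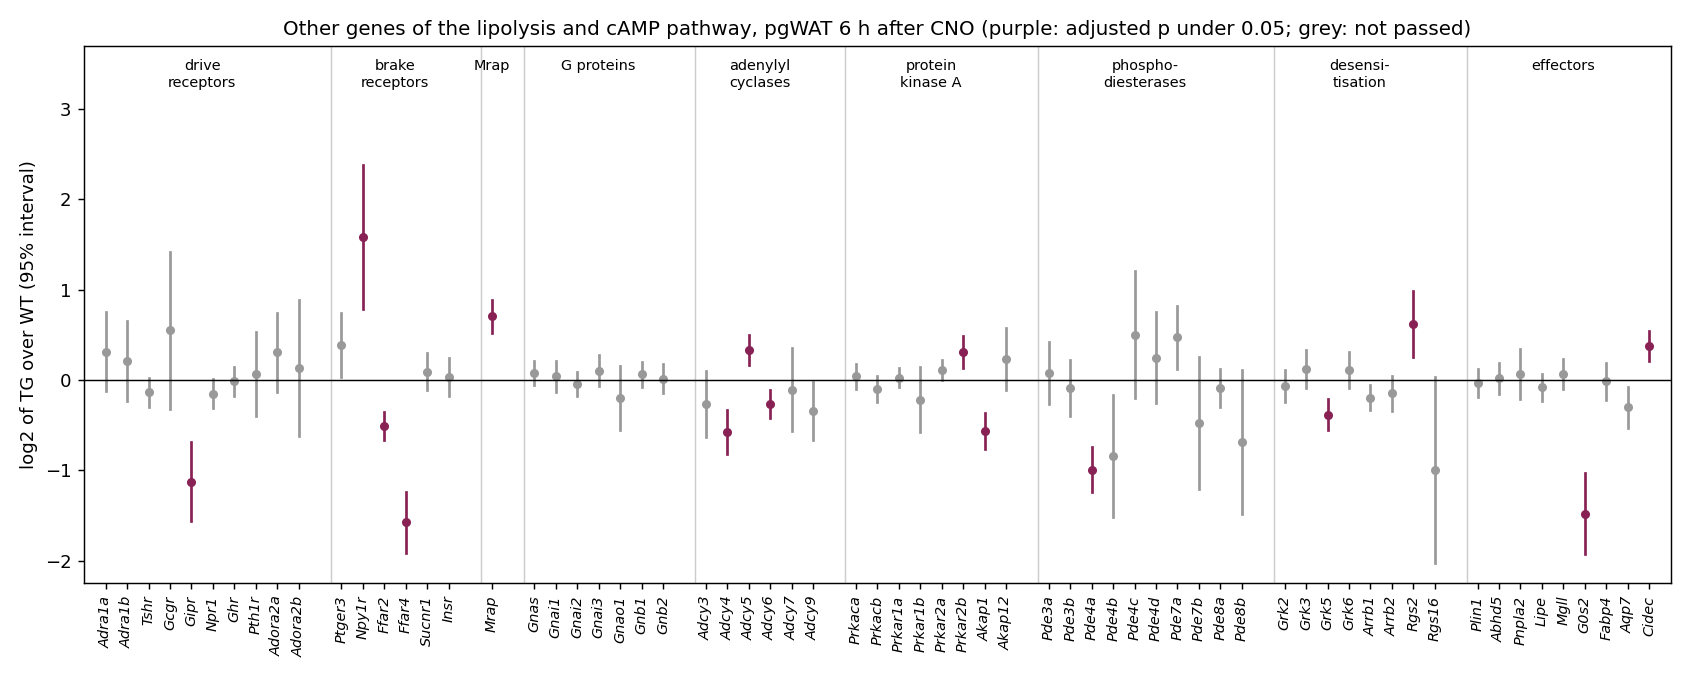
Log2 change of TG against WT at 6 h, with its 95% interval, of each tested gene of the pathway list, grouped by role, in purple where the adjusted p passed 0.05 and grey otherwise. The 15 that passed lie between Ffar4 (-1.57) and Npy1r (1.58), and no G protein subunit is among them.

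Among 10 other receptors that drive lipolysis, Gipr fell and 9 did not pass. Gipr, the receptor of the incretin GIP, was at 6.28 and 2.89 CPM, a log2 change of -1.12 (edgeR adjusted p = 0.00113).

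Of 6 other receptors that brake lipolysis, Npy1r rose and Ffar4 and Ffar2 fell. Ffar4, a receptor for long-chain fatty acids, averaged 40.0 ± 9.04 CPM in the WT libraries and 13.4 ± 2.63 CPM in the TG libraries (SD, n = 6 each), a log2 change of -1.57 (edgeR adjusted p = 6.55e-06). Ffar2, a receptor for short-chain fatty acids, was at 203 and 143 CPM (-0.51, edgeR adjusted p = 0.000126). Npy1r, a receptor for neuropeptide Y, was at 1.05 and 3.17 CPM (1.58, edgeR adjusted p = 0.00835). It was scarce, with 281 counts in all 12 libraries, at 0.282 to 2.08 CPM in WT and 2.10 to 4.11 CPM in TG. A filter at a mean of 5 CPM left it out.

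Mrap, which carries Mc2r to the surface, rose from 177 ± 16.2 to 287 ± 38.3 CPM (SD, n = 6 each), a log2 change of 0.70 (edgeR adjusted p = 2.39e-05), while Mc2r itself did not pass. The other 4 genes of that group, Mc1r, Mc3r, Mc4r and Mrap2, had 0 to 4 counts in all 12 libraries. None of 7 G protein subunits passed: Gnas, the stimulatory subunit, had a log2 change of 0.08 and Gnai2, an inhibitory subunit, -0.05.

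Behind the receptors, Adcy5 rose (0.33) and Adcy4 (-0.58) and Adcy6 (-0.26) fell among 6 adenylyl cyclases, the enzymes that make cyclic AMP. Of 8 genes of protein kinase A, Prkar2b, a regulatory subunit, rose (0.31) and Akap1, an anchor of the kinase, fell (-0.57). Among 10 phosphodiesterases, which break cyclic AMP down, Pde4a fell (-0.99, edgeR adjusted p = 1.49e-05) and Pde3b, the enzyme through which insulin acts, had -0.09. In the 8 genes of receptor desensitisation, Grk5, a receptor kinase, fell (-0.38) and Rgs2, a regulator of G protein signalling, rose (0.62, edgeR adjusted p = 0.0249). Single libraries decided 3 of these calls. The call on Rgs2 was lost in 7 of 20 alternatives. Among these, Rgs2 had an edgeR adjusted p of 0.0525, 0.0544, 0.0506 and 0.0538 without WT 1, WT 4, WT 6 and TG 1, and 0.114 with a replicate block. Adcy6 had 0.0501, 0.0554, 0.0595 and 0.0581 without WT 3, WT 6, TG 4 and TG 5, and Prkar2b 0.0507 and 0.0501 without WT 1 and WT 6.

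Of 9 effectors of lipolysis, G0s2, an inhibitor of the lipase Pnpla2, fell from 277 ± 58.3 to 99.5 ± 28.2 CPM (SD, n = 6 each), a log2 change of -1.48 (edgeR adjusted p = 0.000420). Cidec rose (0.38), and the other 7 did not pass. Pnpla2, the first lipase, had a log2 change of 0.06, the hormone-sensitive lipase Lipe -0.08, the monoglyceride lipase Mgll 0.07 and the droplet coat Plin1 -0.03. The widest 95% interval among these 4 ran from -0.21 to 0.34, for Pnpla2. The genotype difference itself differed between 6 h and 1 h for 5 of the 61 pathway genes tested, beside 4.21% of all 13022 genes: Ffar4 (-1.55), G0s2 (-1.30), Pde4b (-1.06), Mrap (0.67) and Rgs2 (0.99). Without the filter on low counts the calls on Pde4b (edgeR adjusted p = 0.0798) and Rgs2 (adjusted p = 0.0850) were lost, and Pde4b did not pass at 6 h by itself (log2 change -0.84, adjusted p = 0.0971).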

How the data were processed

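RNA was measured by 3' sequencing (QuantSeq FWD, per the labels' protocols) in 20 quadriceps, 18 early and 12 late fat libraries. The deposited values are whole-number counts per gene, made by the authors. The submitters' processing notes name bcl2fastq 2.20.0.422, UMI-tools 1.1.2, cutadapt 1.18, STAR 2.7.10 and the builds GRCm39 and GRCm38. The counter, its strand setting, whether molecular identifiers were collapsed and the build of each table are not given in the sources used here. Per the labels, the molecular identifier module was used for quadriceps and 1 h libraries and the standard kit for 6 h.

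Each table was fitted on its own in edgeR 4.0.16 (R 4.3.3), with filterByExpr, TMM scaling, a robust quasi-likelihood fit and Benjamini-Hochberg adjustment over all genes tested at 0.05. CPM divide counts by the TMM-scaled gene total. The 6 h against 1 h test used an interaction term over 30 libraries. Intervals are 95%. DESeq2 1.42.0, other scalings and filters, a replicate block and leaving out each library were alternatives. Positions came from GENCODE on GRCm38 by gene identifier. The receptors and the gene lists were chosen with earlier results of these data known. All 8 receptors are described, and of the pathway list those that passed at 6 h, with other members of each role as reference. A few items of these lists are not reported here.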

Additional observations from a re-analysis of the deposited data

Results flagged for a closer look

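The genotype difference in fat differed between 6 h and 1 h for 3 receptors in the edgeR interaction test: Adrb3 with a log2 difference of -2.08, Hcar1 with -1.72 and Mc5r with 3.75. At 1 h Mc5r held only 1 to 14 counts per library.

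Of 48 groups of libraries checked, 6 held a library far from the others. Chance gives about 1 in 20 only where values follow a normal distribution, which quadriceps groups of nearly all 0 counts do not. Hcar2 was high at 6 h in WT 2 (27.5 CPM, the next WT library at 16.1) and at 1 h in TG 1 (18.7 CPM, the next at 13.2). Mc2r was low at 1 h in WT 9 (19.3 CPM, the next at 32.3), the library with the lowest adipocyte sum. The others rest on 1 count each in quadriceps: Hcar2 in WT 6 (0.334 CPM), and Mc2r in WT 9 (0.751 CPM) and TG 2 (0.790 CPM).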

How the results depend on the processing

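At 6 h the count of receptors past the threshold was 5 in each of 20 alternatives, with log2 changes from -2.39 to -2.02 for Adrb3, -2.07 to -1.71 for Hcar1, -1.24 to -0.91 for Hcar2, -0.74 to -0.53 for Adrb1 and 3.14 to 3.51 for Mc5r. At 1 h it was 0 in each of 26, and in the test between times 3 in each of 3. In quadriceps it was 1 with no filter (Adrb3) and 0 otherwise. The filter of the main fit left none of the 8 receptors there to test, so a 0 under it does not speak on Adrb3. With all genes kept, the call on Adrb3 held in 21 of 23 alternatives and was lost in 2, DESeq2 and the adipocyte covariate. With a library left out, its edgeR adjusted p was at most 0.0229. Genes past the threshold at 1 h numbered 8, against 23 with DESeq2, 5 with no filter, 13 with the adipocyte covariate, 1 without the libraries holding liver or duct transcripts (9 of 18 left out, leaving 3 WT and 6 TG) and 3 to 12 with a library left out (3 without WT 1, WT 2, WT 7 or TG 3, 12 without WT 8 or TG 6). Pathway genes past it in quadriceps numbered 2 with no filter (G0s2 and Pde3b) and 0 to 1 with a library left out (1 without WT 1, WT 2, WT 8, WT 10, TG 1, TG 7 or TG 8), and between times 3 with no filter, against 5. Uncalled changes that turned sign at 1 h were Adrb1 (-0.011 with the adipocyte covariate, -0.044 to 0.14 with a library left out), Adrb3 (0.17 without the libraries holding other organs' transcripts, -0.23 to 0.018 with a library left out) and Hcar1 (0.019 without those libraries). At 6 h Adora1 turned to -0.013 with upper quartile scaling, -0.0012 under the stricter filter (mean of 5 CPM or more) and -0.064 to 0.078 with a library left out.

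The labels do not say whether equal replicate numbers pair mice. Correlations of same-numbered residuals ran from -0.18 to 0.37, and 2 of 10, 1 of 9 and 0 of 6 pairs matched their own number best. These correlations could miss a pairing that moves few genes. With a replicate block, genes past the threshold numbered 144 in quadriceps, 5 at 1 h and 1874 at 6 h, and receptors 0, 0 and 5. The 0 in quadriceps followed from the filter, which left no receptor there to test. The adipocyte covariate and leaving out libraries with other organs' transcripts were chosen after seeing the data. Depth limits Mc5r and Adra2a at 1 h and all 8 receptors in quadriceps.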

Other observations

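Residuals after removing genotype means describe which receptors varied together between libraries of a genotype; the points share library depth and composition. Hcar1 and Hcar2 had r = 0.83 over 12 libraries at 6 h and 0.59 over 18 at 1 h, Adrb3 and Hcar1 0.62 and 0.51. With the adipocyte sum, r at 6 h and 1 h was 0.84 and 0.51 for Hcar1, 0.68 and 0.88 for Adrb3, 0.66 and 0.42 for Hcar2, and -0.61 and 0.64 for Mc2r, whose sign turned between the times. Adrb1 had 0.21 and 0.73, Adora1 0.17 and 0.18, and at 6 h Mc5r had 0.18 and Adra2a 0.078. Of 10862 genes, those nearest to Adrb3 at 6 h were Osbpl1a (0.93; 0.40 at 1 h), Mrps15 (0.93; 0.63) and Clpp (0.92; 0.05), and to Hcar1 Lgals12 (0.95; 0.44) and Arl2 (0.95; -0.07). Nearest to Mc2r were Mmd (0.93; 0.85), Lss (0.93; 0.44) and Tpi1 (0.92; 0.65). Each is among the 3 highest of 10862 values and was not tested.

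Genes beside the receptors were read at 6 h. Got1l1, 1948 bases from Adrb3, rose (log2 change 1.11, edgeR adjusted p = 0.0101), and Eif4ebp1, 9713 bases from it, did not pass (0.06). Beside Adrb1, Afap1l2 at 179248 bases fell (log2 change -0.999, edgeR adjusted p = 0.00286), and Ccdc186 at 54368 bases did not pass (-0.03). Rsrc2 and Denr, which flank the Hcar genes, did not pass (0.10 and 0.09). Mc2r lies 64461 bases from Mc5r; Rnmt, 12744 bases from Mc5r, did not pass (0.28, edgeR adjusted p = 0.0552). Gm45470 overlaps Adrb3 on the opposite strand with 388 counts at 6 h against 54739 for Adrb3, and whether counting used strand was not given. The longest exact stretch shared between transcripts was 30 bases for Adrb1 and Adrb3, 18 for Hcar1 and Hcar2 and 15 for Mc2r and Mc5r.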
